A study of Caenorhabditis elegans with 2 samples.

Results

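Candidate regions of ZTF-3 ChIP-seq that lie at 2 classes of long non-coding RNA gene were examined: long intergenic non-coding RNA (lincRNA) genes and antisense RNA genes of Caenorhabditis elegans. ChIP-seq maps where a protein sits on DNA. A region was taken when its summit, the position of highest signal, lay inside such a gene or within 500 bp of one in the Ensembl WBcel235 annotation, and when no tRNA, snoRNA, snRNA or miRNA gene lay within 500 bp. The members were 126 lincRNA regions and 65 antisense regions, 191 of the 30000 regions in the pooled list. No region met both classes. The choice used annotation and position alone, not signal.

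The only group holds 2 samples of strain OP614, labelled biological replicates 4 and 5, with separate biosample records. Both were whole young adults of mixed sex, 58 h old, grown from L1 larvae starved after bleaching. The strain has the genotype unc-119(tm4063) and carries the transgene wgIs614, which holds unc-119(+) and a fusion written as ztf-3::TY1::EGFP::3xFLAG, so that the zinc finger protein ZTF-3 bears GFP and FLAG at its C-terminus and was precipitated with an antibody against GFP. Each replicate list and the pooled list were made against the same 1 control, per the text deposited with the samples, and both immunoprecipitated samples carried the tag. No untagged strain was analysed here, so whether a region is binding of ZTF-3 was not tested. Whole animals mix all tissues, so binding in few cells and weak binding in many cells cannot be told apart. Each of the 3 lists holds 30000 peaks and background regions, and a separate thresholded list holds the 534 pooled regions of highest signal. That list is labelled as optimal IDR thresholded peaks, and the pooled list as input for IDR. IDR, the irreproducible discovery rate, scores how well region ranks agree between lists. The thresholded list may therefore not be independent of the replicate ranks. The signal is the authors' own value per region. The lists hold no read counts, so depth is unknown and a single region's signal has no error.

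A lincRNA is a transcript without a long open reading frame that is made from DNA between protein-coding genes. An antisense RNA is made from the strand opposite to a protein-coding gene and overlaps it. Members of both classes are known to act near their own gene or elsewhere, but most have no assigned function. In this annotation, 92 of 100 antisense genes overlapped a protein-coding gene on the opposite strand, against 21 of 194 lincRNA genes. On the same strand, 7 antisense genes and 23 lincRNA genes overlapped one.

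Sequence is shown at 3 of the 4 thresholded lincRNA summits, those at linc-128, linc-78 and linc-90, and at the 3 strongest antisense summits below the thresholded list, so that summits discussed further on can be read directly. The windows of the other thresholded members, at linc-91, anr-20 and F48C1.15, are not printed, so no thresholded antisense summit is among them. Each runs 50 bp to either side of the summit, on the plus strand of WBcel235 (ce11). The linc-128 window is chrV:1151438-1151538, the linc-78 window chrX:2243002-2243102 and the linc-90 window chrIII:355028-355128. The anr-36 window is chrV:7854990-7855090, the anr-54 window chrII:5330233-5330333 and the C02F4.12 window chrIV:10505136-10505236. Capitals mark any of the 6-mers AGAGAC or ACGCAG or GAGAGA or ACACAC or GACGCA on either strand. These 6-mers were found earlier in these same data.
linc-128: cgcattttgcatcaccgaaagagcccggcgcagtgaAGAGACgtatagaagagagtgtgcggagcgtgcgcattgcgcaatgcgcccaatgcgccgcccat
linc-78: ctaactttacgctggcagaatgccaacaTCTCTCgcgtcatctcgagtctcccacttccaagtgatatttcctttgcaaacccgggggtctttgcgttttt
linc-90: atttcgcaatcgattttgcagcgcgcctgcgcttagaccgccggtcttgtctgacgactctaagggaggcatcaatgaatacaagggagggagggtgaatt
anr-36: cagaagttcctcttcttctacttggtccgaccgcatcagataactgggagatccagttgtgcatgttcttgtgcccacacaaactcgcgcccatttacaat
anr-54: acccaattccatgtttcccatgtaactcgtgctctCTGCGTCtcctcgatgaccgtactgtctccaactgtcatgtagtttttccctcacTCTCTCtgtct
C02F4.12: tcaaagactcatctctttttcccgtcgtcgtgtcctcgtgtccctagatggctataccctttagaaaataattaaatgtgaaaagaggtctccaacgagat
The linc-128 window holds AGAGAC once, and the linc-78 window holds GAGAGA on its minus strand. In the anr-54 window the overlapping GACGCA and ACGCAG stand together, with GAGAGA near the end of the window. No marked 6-mer occurred in the windows of linc-90, anr-36 and C02F4.12.

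Both classes of region had signals close to those of candidate regions in general, with a handful of strong members. The median signal was 29.5 in lincRNA regions (95% order-statistic interval 26.7 to 31.6), 29.0 in antisense regions (27.2 to 31.9) and 28.0 in all pooled regions. The intervals of both classes overlapped and included the median of all regions. The quartiles were 23.7 and 38.4 in lincRNA regions, 25.3 and 36.9 in antisense regions and 23.5 and 35.1 in all pooled regions. The deposited −log10 q, where a higher value means stronger evidence for a peak, was low at such median signals. It was 0.143 for the R102.15 region (signal 29.0) and 0.149 for a linc-125 region (29.4), against 2.48 at both linc-128 and anr-20. Counts of position, sequence and neighbours given further on include such weak regions, which may be background.

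**Figure D1:**
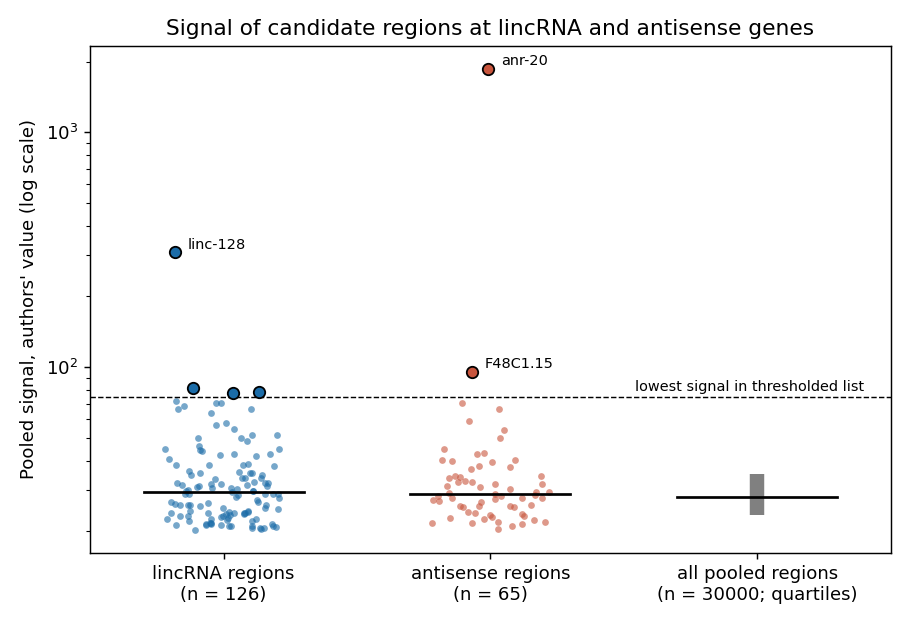
Pooled signal on a log axis for each lincRNA region and each antisense region (points), with the class median as a bar, beside the median and quartiles of all pooled regions. Ringed points are the 4 lincRNA and 2 antisense members of the thresholded list, above the dashed line at 74.7, and the 3 medians lie between 28.0 and 29.5.

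In the thresholded list stood 4 of 126 lincRNA regions (3.17%, exact 95% interval 0.872 to 7.93%) and 2 of 65 antisense regions (3.08%, 0.375 to 10.7%), against 1.78% of all pooled regions. Both intervals include that background, so neither share is shown to differ from it, and the 2 classes had nearly the same share. Intervals cover counting error over regions alone, and regions are not replicates. Among the 3000 strongest pooled regions stood 20 lincRNA regions (15.9%, 9.97 to 23.4%) and 7 antisense regions (10.8%, 4.44 to 20.9%), where the background is 10%. The lincRNA interval reaches just below that background.

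The 4 lincRNA genes with a thresholded region were linc-128, linc-91, linc-78 and linc-90. The linc-128 region, chrV:1151328-1151622, had a signal of 308 and rank 8 of 30000 in the pooled list. Its signal was 240 in replicate 4, where it ranked 6, and 70.0 in replicate 5, where it ranked 17. It stood far above all other lincRNA regions, the next of which had a pooled signal of 81.8. The summit lay in an exon, 582 bp from the 5′ end of the 2302 bp gene. The nearest transcription start site (TSS) of a protein-coding gene, 4783 bp away, belonged to cmd-1, which encodes calmodulin, and the summit was outside any promoter window, taken as the stretch between 1000 bp before and 200 bp after such a TSS. Its GC content within 100 bp of the summit, 60.2%, was the highest of the 126 lincRNA regions, whose median was 41.3%.

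The other 3 lay just above the lowest thresholded signal, 74.7, and each was in the promoter window of a protein-coding gene. The linc-91 region, chrI:4699221-4699664, had a pooled signal of 81.8 and ranked 387 in replicate 4 and 1051 in replicate 5. Its summit was 167 bp upstream of linc-91 and 868 bp upstream of the TSS of chd-7, which encodes a chromodomain helicase. The linc-78 region, chrX:2242830-2243273, had a signal of 78.8 and ranked 450 in replicate 4 and 2820 in replicate 5. It was 63 bp upstream of linc-78, a 125 bp gene whose start coincides with that of the non-coding RNA gene AH9.7, and 434 bp upstream of rpl-11.2, a ribosomal protein gene. The linc-90 region, chrIII:354856-355299, had a signal of 77.9 and ranked 1234 in replicate 4 and 199 in replicate 5. It lay in an intron in the 3′-most of 3 equal parts of linc-90 and 278 bp upstream of a TSS of gei-4, a coding gene that linc-90 overlaps on the opposite strand. Of these 3, linc-91 and linc-78 ranked higher in replicate 4 and linc-90 in replicate 5.

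The 2 antisense genes with a thresholded region were anr-20 and F48C1.15. The anr-20 region, chrI:9382716-9383377, was the strongest of the whole pooled list, with a signal of 1860, and ranked 1 in both replicates, with signals of 1332 in replicate 4 and 532 in replicate 5. Its summit lay in an exon of anr-20, 531 bp from the 5′ end, inside an intron of ppfr-1 on the opposite strand, which encodes a regulatory subunit of protein phosphatase 4. The summit fell in an unbroken repeat of GT/CA dinucleotides, 189 bp long, at chrI:9382981-9383169. That run fills all but the first and last base of F16A11.7, a non-coding RNA locus annotated on each strand at chrI:9382980-9383170, so the signal cannot be assigned to anr-20 rather than to F16A11.7 or the run. How the authors placed reads from such a repeat is not given in the sources used here.

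The F48C1.15 region, chrI:5316315-5316758, had a pooled signal of 95.6, with 83.8 and rank 169 in replicate 4 and 19.8 and rank 1277 in replicate 5. It was strong in 1 replicate. The summit lay in an exon of F48C1.15, 620 bp from its 5′ end, within an intron of let-526 on the opposite strand, which encodes a subunit of the SWI/SNF chromatin remodelling complex. Its GC content, 47.3%, was above the antisense median of 38.8%. Both thresholded antisense summits were thus in the middle of 3 equal parts of the RNA gene and in an intron of the overlapped coding gene, and neither was in a promoter window.

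Below the thresholded list, the next lincRNA regions were a second region in an exon of linc-91 (signal 72.0, rank 588), one 296 bp downstream of linc-156 (70.3, rank 634) and one 453 bp upstream of linc-84 (70.1, rank 644). The linc-156 region ranked 404 in replicate 5 and 1232 in replicate 4. That linc-84 region was listed in replicate 4 alone, with a signal of 46.3, and its summit lay 57 bp from a TSS of the protein-coding gene F55H12.7. A further linc-84 region, 141 bp upstream of the gene (66.4, rank 744), was listed in both replicates and ranked 407 in replicate 5. The next antisense regions were 81 bp upstream of anr-36 (70.3, rank 638), in an exon of anr-54 (66.2, rank 755) and 100 bp upstream of C02F4.12 (58.8, rank 1119). The gene anr-54 lies opposite vhp-1, which encodes a MAP kinase phosphatase. The anr-36 summit lay 47 bp from a TSS of the protein-coding gene C37C3.18. It ranked 663 in replicate 4 and 1528 in replicate 5, and that of C02F4.12 ranked 4335 in replicate 4 and 621 in replicate 5. All 3 antisense regions were listed in both replicates.

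Replicate 4 listed most member regions and replicate 5 fewer. A member was listed in a replicate when its pooled summit lay inside a region of that replicate's list, and several members could share 1 such region. Of the lincRNA regions, 103 (81.7%, 73.9 to 88.1%) were listed in replicate 4, 70 (55.6%, 46.4 to 64.4%) in replicate 5 and 51 (40.5%, 31.8 to 49.6%) in both. Of the antisense regions, 50 (76.9%, 64.8 to 86.5%) were listed in replicate 4, 39 (60.0%, 47.1 to 72.0%) in replicate 5 and 25 (38.5%, 26.7 to 51.4%) in both. For all pooled regions the shares were 78.1%, 50.3% and 35.1%, inside the intervals of both classes. Neither replicate listed 4 lincRNA regions (3.17%, 0.872 to 7.93%) and 1 antisense region (1.54%, 0.0389 to 8.28%), against 6.59% of all pooled regions.

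Where listed, the median rank was 9463 in replicate 4 and 8530 in replicate 5 for lincRNA regions, and 8530.5 and 8954 for antisense regions. All pooled regions stood at 11219 and 10226. The lincRNA intervals, 6467 to 11907 and 4808 to 13789, and the antisense intervals, 5717 to 12240 and 5275 to 17466, all included those values. Signals of the replicates correlated across the 51 lincRNA regions with a Spearman's rho of 0.460 and across the 25 antisense regions with 0.357, against 0.333 across 10516 pooled regions. These points share their libraries and control, some members match the same replicate region, and rho is given as a description. With 1 region per RNA gene, rho was 0.418 over 32 lincRNA regions and 0.441 over 16 antisense regions. Outside the thresholded list rho was 0.351 over 47 lincRNA regions and 0.201 over 23 antisense regions, against 0.241 over 9989 pooled regions.

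Few members were strong in both replicates, where strong means among the 534 regions of highest signal in a replicate's list. Of the lincRNA regions, 5 were strong in replicate 4 (3.97%) and 5 in replicate 5 (3.97%). Of the antisense regions, 3 were strong in replicate 4 (4.62%) and 1 in replicate 5 (1.54%). Neighbouring members at linc-91 and at F48C1.15 in replicate 4, and at linc-156 in replicate 5, matched the same replicate region and were each counted. The background was 2.27% of all pooled regions in replicate 4 and 2.17% in replicate 5, more than 1.78% because neighbouring pooled regions can share a replicate region. Only linc-128 among lincRNA regions (0.794%, 0.0201 to 4.34%) and only anr-20 among antisense regions (1.54%, 0.0389 to 8.28%) were strong in both, against 1.03% of all pooled regions.

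**Figure D2:**
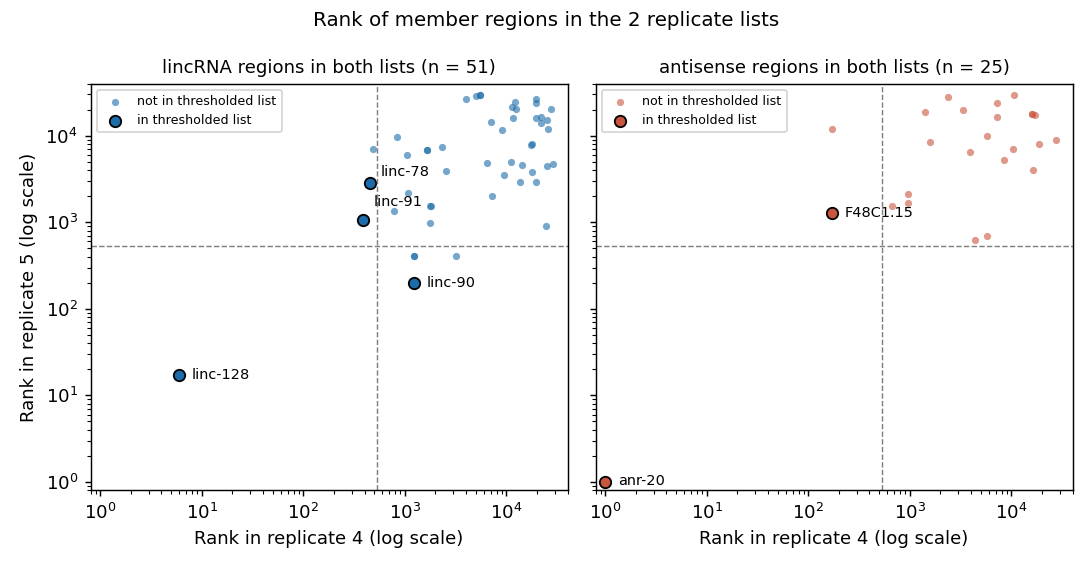
Rank in replicate 4 against rank in replicate 5, on log axes, for the 51 lincRNA and 25 antisense regions listed in both; rank 1 is the strongest, ringed points are thresholded and dashed lines mark rank 534. Only linc-128 and anr-20 are on the stronger side of both lines.

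The same rule applied to each replicate's own list gave similar sets. Replicate 4 held 140 lincRNA regions at 94 genes and 65 antisense regions at 43 genes, and replicate 5 held 122 lincRNA regions at 92 genes and 73 antisense regions at 45 genes. In each list 4 lincRNA and 2 antisense regions were strong, where 534 of all 30000 regions are strong by definition. In replicate 4 they lay at linc-91, which held a pair, linc-128, linc-78, F48C1.15 and anr-20. In replicate 5 they lay at linc-156, linc-84, linc-90, linc-128 and anr-20, where 2 summits were called in 1 interval. Besides linc-128 and anr-20, the replicates therefore had no strong gene in common. Of all 30000 pooled regions, 680 were strong in replicate 4, 650 in replicate 5 and 308 in both.

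By gene, a member was found at 86 of 194 lincRNA genes (44.3%, 37.2 to 51.6%) and at 45 of 100 antisense genes (45.0%, 35.0 to 55.3%). At 58 lincRNA genes and 26 antisense genes a region was found in the pooled list and in both replicates' own lists. None was found in any list at 70 lincRNA genes and 39 antisense genes. These counts leave out regions near a tRNA, snoRNA, snRNA or miRNA gene. At 5 lincRNA genes and 2 antisense genes, such regions were the only ones in the pooled list. Genes with a member had a median length of 826.5 bp for lincRNA and 727 bp for antisense RNA, against 741 bp and 556 bp for genes without one. Longer genes offer more bases to a summit, and this was not adjusted for. In the genes with their 500 bp flanks, 305 summits per Mb were found for lincRNA genes and 337 per Mb for antisense genes, against 299 per Mb of the genome.

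Most genes had 1 region: 58 lincRNA and 30 antisense genes. The lincRNA genes with the most regions were linc-156 with 5, and linc-90, linc-129 and linc-143 with 4 each. The 5 regions of linc-156, a 5725 bp gene, had signals of 70.3, 33.8, 28.8, 24.1 and 20.6, and the strongest lay downstream of the gene. Those of linc-90 had 77.9, 42.7, 34.7 and 31.6, with a second region 10 bp upstream of the gene. Those of linc-129 had 64.0, 57.8, 40.6 and 25.7, all inside the gene, and those of linc-143 had 44.2, 31.6, 27.9 and 23.2. The antisense genes with the most regions were ZK822.8 with 4 (34.6, 34.0, 32.6 and 22.4), anr-54 with 3 (66.2, 40.4 and 25.9) and anr-44 with 3 (43.0, 28.3 and 27.7), and ZK1251.15 also had 3. Neighbouring regions are not independent: 36 lincRNA and 14 antisense regions overlapped another member.

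**Figure D3:**
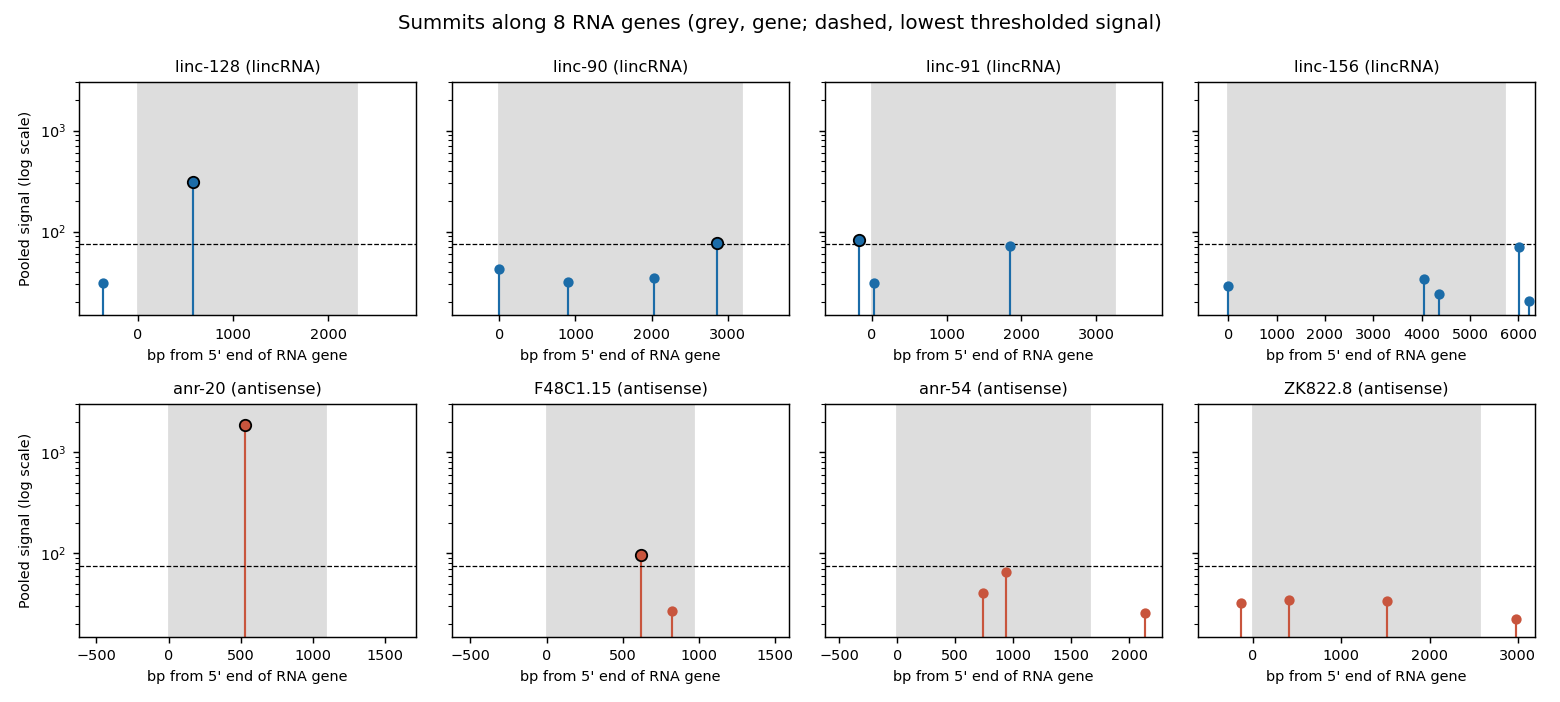
Pooled signal (log axis) of each member summit against its distance in bp from the 5′ end of the RNA gene, for 4 lincRNA and 4 antisense genes; grey marks the gene, ringed points are thresholded and the dashed line is at 74.7. At linc-128 and anr-20 1 summit inside the gene stands far above the line, while the other genes hold summits near or below it.

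Along the RNA gene, summits of both classes were spread from end to end. They lay inside the gene in 66 lincRNA regions (52.4%, 43.3 to 61.3%) and 31 antisense regions (47.7%, 35.1 to 60.5%). The genes themselves covered 228 of the 413 kb of lincRNA genes and flanks, and 96.6 of 193 kb for antisense genes. Inside the genes lay 290 lincRNA and 321 antisense summits per Mb, against 305 and 337 per Mb with the flanks. Upstream of the 5′ end lay 38 lincRNA summits (30.2%) and 22 antisense summits (33.8%), and downstream 22 (17.5%) and 12 (18.5%). With the gene cut into 3 equal parts, the first, middle and last part held 18, 20 and 28 lincRNA summits, and 7, 14 and 10 antisense summits. The intervals of the 2 classes overlapped in every zone. Both classes had more summits in the upstream than in the downstream flank, and for lincRNA genes the intervals were 22.3 to 39.0% upstream and 11.3 to 25.2% downstream, which overlap.

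**Figure D4:**
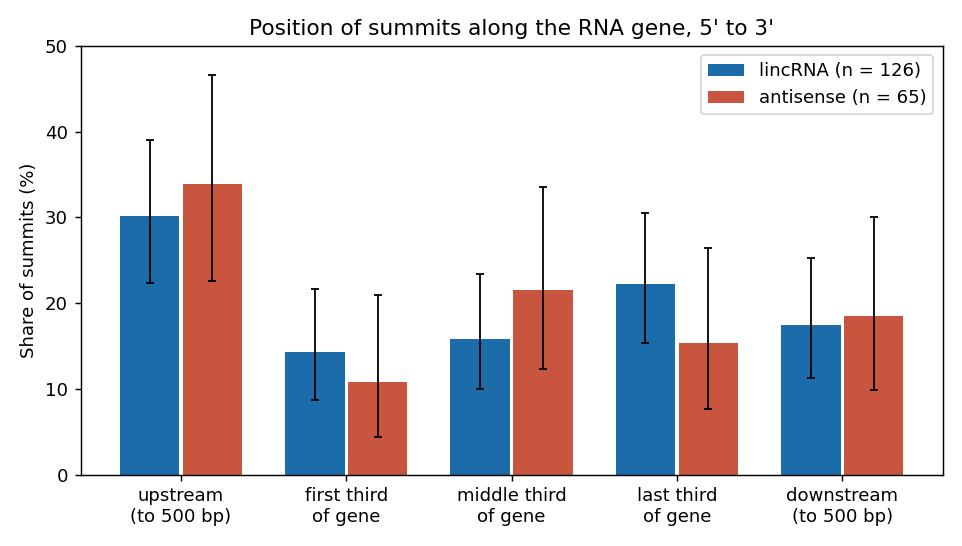
Share of summits (%) in 5 zones along the RNA gene from 5′ to 3′ for lincRNA and antisense regions, with exact 95% binomial intervals as error bars. The upstream zone holds 30.2% and 33.8% and the intervals of the classes overlap in each zone.

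Signal by position is given as medians with no interval or test. They were 30.6 upstream, 29.7, 30.2 and 25.01 in the first, middle and last part, and 29.7 downstream of lincRNA genes. For antisense genes they were 32.3 upstream, 28.3, 32.8 and 28.5 in the 3 parts, and 24.9 downstream. Summits within 250 bp of the 5′ end numbered 30 for lincRNA (23.8%, median signal 31.0) and 19 for antisense genes (29.2%, 28.3). Within 250 bp of the 3′ end there were 17 (13.5%, 28.9) and 12 (18.5%, 24.3). Of summits inside the gene, 51 lincRNA and 17 antisense summits lay in exons of the RNA gene and 15 and 14 in its introns.

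The classes differed in place relative to protein-coding genes, as their definitions imply. Outside such genes lay 100 lincRNA summits (79.4%, 71.2 to 86.1%) and 9 antisense summits (13.8%, 6.53 to 24.7%), against 30.7% of all pooled regions. Coding-gene exons held 11 lincRNA summits (8.73%) and 29 antisense summits (44.6%), and introns 15 (11.9%) and 27 (41.5%). In promoter windows lay 27 lincRNA summits (21.4%, 14.6 to 29.6%) and 23 antisense summits (35.4%, 23.9 to 48.2%), against 28.6% of all. The median distance to a coding TSS was 2190 bp for lincRNA, 962 bp for antisense and 1149 bp for all pooled regions.

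Median signal was higher inside than outside promoter windows for lincRNA regions, with overlapping intervals. Inside the windows it was 38.5 (26.0 to 51.2, 27 regions), and outside them 28.9 (25.9 to 30.7, 99 regions). In all pooled regions these medians were 28.7 and 27.7. Of lincRNA regions 3 of 27 in promoter windows were thresholded (11.1%, 2.35 to 29.2%) and 1 of 99 outside them (1.01%, 0.0256 to 5.50%). The shares for all pooled regions were 2.92% in promoter windows and 1.33% outside. Antisense regions had medians of 29.0 in promoter windows and 29.4 outside, with 0 of 23 thresholded (0 to 14.8%) and 2 of 42 (4.76%, 0.582 to 16.2%). These differences were not tested.

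Dinucleotide runs lay at few members. A GT/CA run of at least 20 bp lay within 200 bp of 1 lincRNA summit, at linc-87 (signal 28.9), and of 1 antisense summit, at anr-20, against 0.507% of all pooled regions. An AG/CT run lay at 2 lincRNA summits, near linc-90 (42.7, below the thresholded list) and linc-93 (35.5), and at 0 antisense summits. The lincRNA share was 1.59% (0.193 to 5.62%), against 0.407% of all pooled regions, which the interval includes. No member lay at an AT run, which 0.0567% of all regions did. Median GC content within 100 bp of the summit was 41.3% in lincRNA, 38.8% in antisense and 40.3% in all regions.

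The 6-mer AGAGAC was in 13 of 126 lincRNA windows reaching 50 bp to each side of the summit (10.3%, 5.61 to 17.0%) and 5 of 65 antisense windows (7.69%, 2.54 to 17.0%), against 5.31% of all regions. GAGAGA was in 18 (14.3%, 8.69 to 21.6%) and 8 (12.3%, 5.47 to 22.8%), against 8.55%. ACGCAG was in 5 (3.97%) and 1 (1.54%), against 3.45%. GACGCA was in 4 (3.17%) and 4 (6.15%), against 3.44%. ACACAC was in 10 (7.94%) and 5 (7.69%), against 5.42%. For lincRNA regions the intervals of AGAGAC and GAGAGA lay just above the background, for antisense regions all 5 included it, and the 6-mers were known from these data. Other non-coding RNA genes had such shares too: GAGAGA was in 13.8% (12.4 to 15.2%) and AGAGAC in 7.67% (6.64 to 8.79%) of the 2452 other regions at genes of biotype ncRNA, and in 11.9% (9.94 to 14.1%) and 7.15% (5.63 to 8.93%) of the 993 regions at tRNA, snoRNA, snRNA and miRNA genes.

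Of the nearest protein-coding genes, ribosomal protein genes (rpl-11.2 and rpl-31) stood at 3 lincRNA regions (2.38%, 1 thresholded) and at 0.337% of all pooled regions. Both rpl-31 regions were overlapping calls at linc-1 that matched the same region in each replicate. The histone gene his-1 stood at 2 lincRNA regions (1.59%), overlapping calls at linc-61, where histone genes stood at 0.0933% of all pooled regions. The genes nhr-34 and nhr-66, which encode nuclear hormone receptors, stood at 6 antisense regions (9.23%), where any nuclear hormone receptor gene stood at 1.67% of all pooled regions. Those 6 belong to 2 antisense genes, ZK1251.15 and anr-44, that lie opposite nhr-34 and nhr-66. None of them was thresholded, and 6 of the 501 pooled regions nearest to a nuclear hormone receptor gene were, so few would be looked for. Collagen, homeobox and nuclear hormone receptor genes were nearest to 1 lincRNA region each (0.794%), against 0.797%, 0.3% and 1.67% of all pooled regions. No member was nearest to a gene of the heat shock, translation factor or respiratory chain prefix lists. Genes of these lists were nearest to 0.15%, 0.2% and 0.143% of all pooled regions, so a count of 0 among 191 members is near the background.

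By chromosome, lincRNA regions were spread over all 6 and antisense regions were fewest on III and X. Chromosome III held 29 lincRNA regions (23.0%, against 15.2% of all pooled regions) at 17 of its 29 lincRNA genes. Chromosome I held 26 (20.6%, against 15.1%) at 15 of 23. Chromosome II held 17 (13.5%, against 15.9%) at 17 of 43, and chromosome IV held 10 (7.94%, against 15.1%) at 9 of 26. On V and X the lincRNA shares were 14.3% and 20.6%, against 19.8% and 18.9%. Of antisense regions 20 (30.8%, against 15.1% of all pooled regions) were on chromosome IV, which also has 23 of the 100 antisense genes. On III lay 2 (3.08%, against 15.2%) and on X 5 (7.69%, against 18.9%), and these have 10 and 7 such genes.

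Set beside other non-coding RNA genes, both classes had medians near that of the 2452 regions at genes of biotype ncRNA that were neither members nor near a tRNA, snoRNA, snRNA or miRNA gene. Those had a median signal of 29.0, with 3.43% thresholded (2.74 to 4.22%) and 2.49% strong in both replicates. With no such exclusion, 2956 pooled regions lay at ncRNA genes, 157 of them thresholded, with a median signal of 30.1. The 993 regions at tRNA, snoRNA, snRNA and miRNA genes had a median of 37.4, with 12.2% thresholded (10.2 to 14.4%), an interval above that of lincRNA regions and overlapping that of antisense regions. The 675 regions at piRNA genes, with the same exclusion, had a median of 27.2, with 1.48% thresholded. Of the members, 13 lincRNA regions (10.3%) and 6 antisense regions (9.23%) also lay within 500 bp of an ncRNA gene, near the 9.85% of all pooled regions, among them the thresholded regions at linc-78, anr-20 and F48C1.15.

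At the distance limit, the 3 lincRNA regions just inside 500 bp (linc-156 at 498 bp, linc-100 at 467 bp and M04F3.7 at 466 bp) had signals of 20.6, 25.8 and 37.8, and the 3 just outside (linc-35 at 501 bp, linc-3 at 508 bp and linc-122 at 509 bp) 24.9, 35.5 and 20.6. For antisense genes those inside were F15B9.15 at 489 bp, anr-54 at 478 bp and anr-58 at 442 bp, with 32.5, 25.9 and 36.9, and those outside C44C10.13 at 506 bp, anr-1 at 515 bp and ZK593.11 at 530 bp, with 28.7, 30.8 and 21.6. None of the 12 was thresholded.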

How the data were processed

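The data are lists of candidate regions from ChIP-seq of replicates 4 and 5 and of both pooled, on ce11 per the labels. The authors computed the signal of each region against 1 control and deposited it with a −log10 q value and a summit position. Neither the aligner nor the peak caller is named in the sources used here. The authors' thresholded list holds 534 pooled regions and is labelled as thresholded by IDR. Signal has a different scale in each list, so replicates were compared by rank, and read depth is unknown.

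Regions were assigned to genes of Ensembl release 115 (WBcel235), and 0 regions ran past a chromosome end. Pooled and replicate regions were matched where a replicate region held the pooled summit. Shares carry exact (Clopper-Pearson) 95% intervals and medians order-statistic 95% intervals. With 1 group, no test was made. The text names genes with a thresholded member, those with the most members, the 3 strongest members of each class below the thresholded list and the 3 to each side of the distance limit. Sequences are shown for 3 of the 6 thresholded members, and 3 antisense windows below that list were added for comparison. Genes and lists outside this rule were named after their values were seen. Members and lists were chosen with earlier results of these data known. Scripts were tested on simulated data and run with Python 3.11.15, NumPy 2.4.6, pandas 2.3.3, SciPy 1.17.1 and Matplotlib 3.10.9.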

Additional observations from a re-analysis of the deposited data

How the results depend on the processing

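Of 96 alternative values, 92 stayed inside the interval of the reported value and 4 fell outside it. No region was near both classes, so the values with such regions left out could not move. Intervals of shares that rest on few members are wide, so staying inside them shows little about robustness. With only the stronger 50% of the thresholded regions counted, the lincRNA share was 0.794% (1 of 126), linc-128 alone. With a distance of 1000 bp, summits inside the gene made up 37.3% of lincRNA and 32.6% of antisense regions, since that setting adds flanking regions only. Without regions at GT/CA runs, 0 of 64 antisense regions were strong in both replicates, since anr-20 lies at such a run. Thresholded shares ranged between 0.794 and 4.55% for lincRNA and between 1.56 and 6.45% for antisense regions, and median signals between 28.8 and 29.8 and between 28.3 and 29.4. In the replicates' own lists, strong shares were 2.86 to 3.28% for lincRNA and 2.74 to 3.08% for antisense regions, and summits inside the gene 52.5 to 53.6% and 47.7 to 56.2%. Each such list has 534 strong regions among 30000 by definition. No paired analysis was possible because there is 1 group. With 4 and 2 thresholded members, the intervals leave room for shares several times lower or higher.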

Other observations

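The rule left out 7 lincRNA regions and 3 antisense regions because a tRNA, snoRNA, snRNA or miRNA gene lay within 500 bp. Of these, 1 lincRNA region was thresholded, with a highest signal of 82.3, and 0 antisense regions were, with a highest signal of 41.2. All 4 thresholded lincRNA regions and both thresholded antisense regions were at RNA genes on the plus strand, where 67 of 126 lincRNA regions and 42 of 65 antisense regions lay; this count was noticed after the values were seen and was not tested.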
